A study of Mus musculus with 6 samples.

Results

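The FGF pathway set comprised 34 genes of the 21883 protein-coding genes considered, namely 21 FGF ligand genes, 4 FGF receptor genes and 9 genes that carry or limit the ERK output of the receptors. Ligand genes were counted by family, so they include Fgf11, Fgf12 and Fgf14, whose products stay in the cell. Each gene was described by the GLI3R ChIP-seq peaks whose summit lay within 50 kb of its mm10 interval (distance 0 inside the gene). This gave 13 of the 3640 peaks called in doxycycline-treated cells and 8 of the 4379 peaks called in untreated cells. The cells were cardiac progenitors made from A2Lox.cre mouse embryonic stem cells and harvested on day 6. All of them carried GLI3R-FTA, a tagged form of the GLI3 repressor that is switched on by doxycycline and was recovered on streptavidin beads through its Avi-tag. The doxycycline group received 500 ng/ml from day 5, for 24 h, and the untreated group carried the same transgene without doxycycline, so each group is the same line with and without the inducer. Whether that line is a single clone is not given in the sources used here, and the peak lists hold no expression values with which to check the labelled cell type.

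FGF ligands bind FGF receptors, which are receptor tyrosine kinases, together with heparan sulphate or a Klotho protein, and the receptors signal mainly through RAS and ERK. ERK activity induces the transcription factors ETV4 and ETV5 and a set of inhibitors (Sprouty and Spred proteins, which act on the RAS-RAF step, and dual-specificity phosphatases, which remove phosphate from MAP kinases), so the genes of the last group also report on pathway activity. In the early heart, Fgf8 and Fgf10 are known as second heart field ligands, and Fgf9, Fgf16 and Fgf20 as ligands that act on the growing myocardium. GLI3R is the form of GLI3 that represses Hedgehog target genes.

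Of the 34 genes, 10 had a doxycycline summit within 50 kb (29.4%, where 20.0% of all protein-coding genes had such a summit). In the untreated list 8 had a summit within 50 kb (23.5%, against 18.8% of all protein-coding genes). The number with a summit in both lists was 4 (11.8%, against 4.97%), and 20 had a summit in neither list, as did 66.1% of all protein-coding genes. Each condition had a single peak list, so no test between conditions was possible and no p-value is given. Per length searched, the windows of the 34 genes (5.42 Mb) held 2.40 doxycycline and 1.48 untreated summits per Mb, and the windows of all protein-coding genes held 1.53 and 1.62. With no replicate lists, these shares have no error between samples. By share of genes, the excess of a few genes over the background in either list is not read as a property of the FGF genes. Per Mb, the untreated list showed no excess (1.48 against 1.62).

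**Figure D1:**
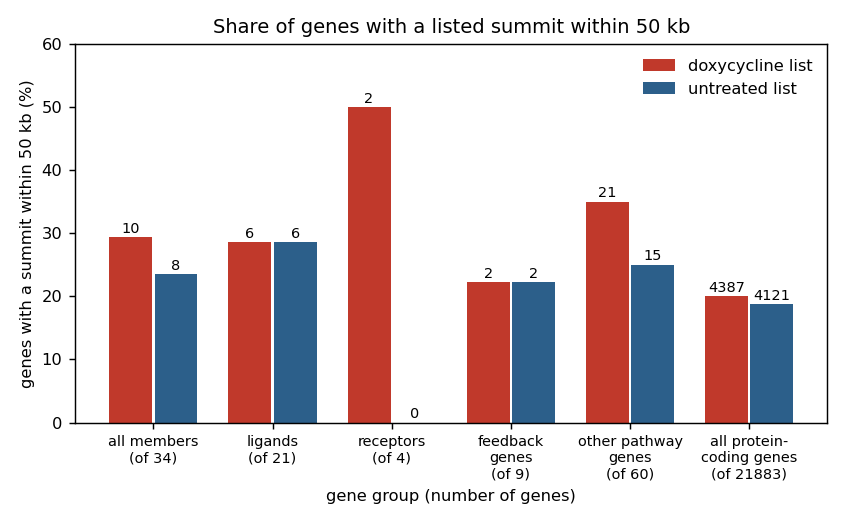
Bars give the percentage of genes with a summit within 50 kb, by gene group and peak list, with the number of genes above each bar and the group size under it. Ligands and feedback genes had equal counts in both lists (6 and 6, 2 and 2), while 2 receptor genes counted with doxycycline and 0 without. The bars for all protein-coding genes stand at 20.0% with doxycycline and 18.8% without.

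Among the 4 receptor genes, 2 had doxycycline summits (50.0%, against 20.0% of all protein-coding genes) and 0 had untreated ones (against 18.8%). With only 4 genes, the difference between the lists is not read as a property of the receptors. Fgfr1, a main receptor of early mesoderm, had 3 doxycycline summits within 50 kb and 0 untreated ones. Of all protein-coding genes, 0.800% had 3 or more doxycycline summits within that distance. A pair of the summits lay inside the gene, which spans chromosome 8 from 25518759 to 25575718 and is 57.0 kb long. Of all protein-coding genes, 6.16% held a doxycycline summit inside the gene and 0.978% held 2 or more. The peak at 25522328 to 25522506 has its summit 3.65 kb from the lower-coordinate end of the gene, with an authors' fold enrichment of 5.74. A second peak inside the gene, at 25543269 to 25543557 and 24.7 kb from the same end, had a fold enrichment of 5.81. The third, at 25472322 to 25472469, lay 46.4 kb outside the gene and slightly nearer to Gm39147 (45.0 kb), with a fold enrichment of 5.85. All 3 had a pileup of 7 fragments, which is the median of the whole doxycycline list, and the exact Poisson 95% interval of such a count runs from 2.81 to 14.4 fragments. The peaks were of middling strength within their list, in which 48.1% of peaks had a higher −log10 q than the first and 34.9% a higher one than the other two. Letm2 lay 35.0 kb from the second summit, and no protein-coding gene other than Fgfr1 lay within 50 kb of the first. The nearest untreated summit to Fgfr1 was 1140 kb away, the largest such distance among the 34 genes. An untreated peak needed only 4 fragments to be listed at background, so up to 3 fragments could lie at these positions without a call.

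Fgfr4, a receptor used by liver and muscle progenitors among others, had 2 doxycycline summits and 0 untreated ones, and 3.56% of all protein-coding genes had 2 or more doxycycline summits. The stronger peak (chromosome 13, 55211125 to 55211403) reached 8.04-fold with 10 fragments (95% interval 4.80 to 18.4) and a −log10 q of 7.95, and it lay 42.5 kb beyond the end of Fgfr4, inside Nsd1, a histone methyltransferase gene. The weaker (55116597 to 55116766) had 5 fragments, the fewest in the doxycycline list, and lay inside Zfp346, 36.2 kb before Fgfr4, with Gm46415 and Uimc1 also nearer than the receptor gene. Both summits therefore fell in neighbouring genes rather than in the receptor gene. Untreated peaks lay close by without meeting the distance rule, the nearest summit being 60.3 kb from Fgfr4, and 17.7 kb from the stronger doxycycline summit. Fgfr2 and Fgfr3, the receptors best known from limb, epithelia and cartilage, had no summit within 50 kb in either list. Their nearest doxycycline summits were 432 kb and 489 kb away, and an untreated summit lay 52.6 kb from Fgfr2, just outside the limit.

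**Figure D2:**
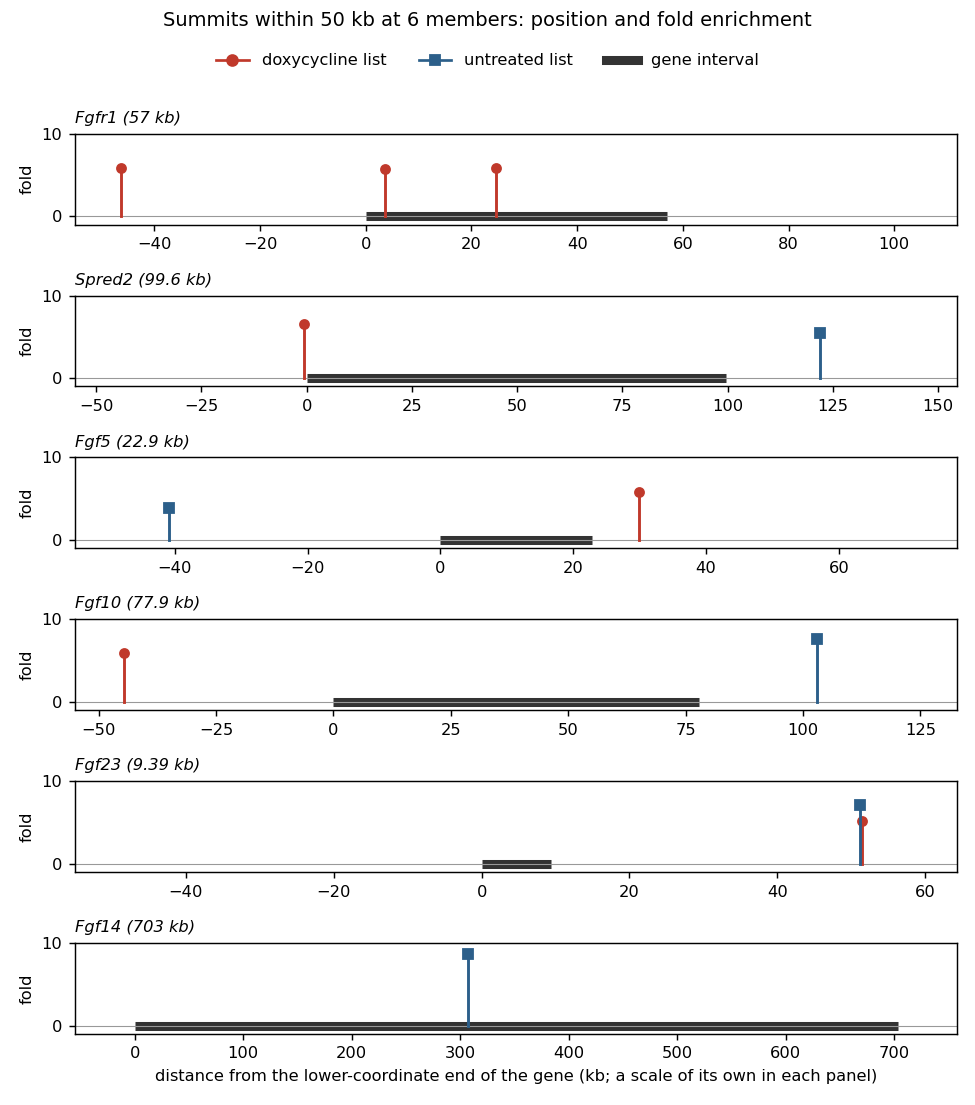
Stems show each summit within 50 kb of 6 genes, at its distance from the lower-coordinate end of the gene (kb, horizontal) and its authors' fold enrichment (vertical), with the gene interval as a dark bar. Fgfr1 has 3 doxycycline stems of nearly equal height and no untreated stem, Spred2 has a doxycycline stem beside its start, and at Fgf23 the stems of both lists stand 0.355 kb apart.

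Of the 9 feedback genes, Spred1 and Spred2 lay within 50 kb of a doxycycline summit, and Spred2 and Etv4 within 50 kb of an untreated summit. The share was 22.2% in each list, near the 20.0% and 18.8% of all protein-coding genes. Spred2 encodes an inhibitor of RAS-ERK signalling and had the doxycycline peak closest to a member's start. That peak (chromosome 11, 19923846 to 19924177) had its summit 529 bases before the annotated start, an enrichment of 6.58-fold from 8 fragments (95% interval 3.45 to 15.8) and a −log10 q of 5.34. No other protein-coding gene lay within 50 kb of the summit. A doxycycline summit outside the gene but within 1 kb of it was found for 0.759% of all protein-coding genes. The untreated peak assigned to Spred2 by distance (20046370 to 20046520, 5.50-fold, 6 fragments) lay at the other side of the gene, 22.4 kb beyond its end and nearer to Actr2. Those 2 summits were 123 kb apart, so the gene counted in both lists through different sites.

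The doxycycline peak at Spred2 ended 14 bases before the stretch that runs up to the start site. That stretch is shown because it is the member promoter nearest to any of these peaks (RefSeq, GRCm38.p6, chr11:19924192-19924441, plus strand, 250 bases, 56.0% G and C), and the peak's own bases were not analysed here.

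Spred2: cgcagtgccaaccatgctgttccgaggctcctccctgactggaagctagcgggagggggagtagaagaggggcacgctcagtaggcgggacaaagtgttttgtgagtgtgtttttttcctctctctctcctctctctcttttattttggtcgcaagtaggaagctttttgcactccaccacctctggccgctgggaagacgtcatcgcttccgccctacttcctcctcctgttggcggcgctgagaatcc

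Capitals would mark the GLI consensus GACCACCCA on either strand with at most 1 mismatch, and this stretch held 0 matches, which says only that these letters are not in this window.

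Spred1, the relative of Spred2, had a doxycycline peak (chromosome 2, 117092746 to 117092992) 28.2 kb before its start, enriched 6.13-fold (−log10 q 4.65, 8 fragments). It was the only protein-coding gene within 50 kb of that summit, and the nearest untreated summit to Spred1 was 648 kb away. Etv4, an ETS transcription factor induced by ERK, had an untreated peak (chromosome 11, 101748373 to 101748514) at 21.3 kb, inside Dhx8, with 4 fragments (95% interval 1.09 to 10.2), the fewest in that list. Its nearest doxycycline summit was 176 kb away. Neither list had a summit within 50 kb of the other 6 feedback genes, which are the Sprouty genes Spry1, Spry2 and Spry4, the MAP kinase phosphatase genes Dusp4 and Dusp6, and Etv5. Dusp6, the ERK phosphatase most used as a readout of FGF signalling, came closest in the doxycycline list at 58.5 kb, and Etv5 followed at 81.6 kb. Dusp4 had an untreated summit at 50.3 kb, just beyond the limit. Spry2 stood at the other extreme, with its nearest doxycycline summit 985 kb away.

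The ligands were described by subfamily, since members of a subfamily share receptors and sequence. In the FGF8 subfamily (Fgf8, Fgf17 and Fgf18), no gene had a summit within 50 kb in either list. Fgf8, the second heart field ligand, had its nearest doxycycline summit at 205 kb and its nearest untreated summit at 113 kb. For Fgf17 the distances were 465 kb and 648 kb, and for Fgf18 they were 177 kb and 260 kb.

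In the FGF7 subfamily (Fgf3, Fgf7, Fgf10 and Fgf22), which signals mostly from mesenchyme to epithelium, Fgf10 and Fgf22 had doxycycline summits and Fgf10 an untreated one. At Fgf10 the doxycycline peak (chromosome 13, 118670079 to 118670219) lay 44.6 kb before the start of the gene with a 5.85-fold enrichment and 7 fragments. The untreated peak (118817576 to 118817732) lay 25.1 kb beyond its end enriched 7.63-fold, from 9 fragments (95% interval 4.12 to 17.1), at a −log10 q of 7.07. No other protein-coding gene was within 50 kb of either summit, and they stood 148 kb apart on opposite sides of the gene. Only 5.09% of untreated peaks had a higher −log10 q than the untreated peak at Fgf10. The Fgf22 peak (chromosome 10, 79777338 to 79777594, 8.04-fold, 10 fragments) lay 19.7 kb beyond the gene and inside Fstl3, which encodes a secreted binder of activin. Of the 8 protein-coding genes within 50 kb of it, Prss57, Rnf126 and Palm were also nearer than Fgf22, and Polrmt, Hcn2 and Misp farther. Fgf3 had its nearest doxycycline and untreated summits at 90.5 kb and 74.9 kb, and Fgf7 at 765 kb and 813 kb.

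In the FGF4 subfamily (Fgf4, Fgf5 and Fgf6), Fgf5 had a summit in each list. Fgf5 marks the epiblast after implantation. Its doxycycline peak (chromosome 5, 98283952 to 98284094) lay 7.04 kb beyond the end of the gene, with a 5.85-fold enrichment and 7 fragments, and Fgf5 was the nearest protein-coding gene, with Cfap299 45.1 kb away. The untreated peak (98213283 to 98213424) had 4 fragments, lay 40.8 kb before the start and was nearer to Prdm8. The summits were 70.7 kb apart, and the doxycycline peak was the nearer and the higher of the 2 by its own list's fold. Fgf4, a ligand of embryonic stem cells and the limb, had an untreated summit at 53.0 kb and a doxycycline one at 113 kb, and Fgf6 had them at 99.4 kb and 99.7 kb.

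The FGF9 subfamily (Fgf9, Fgf16 and Fgf20) had 1 gene with a summit. Fgf9 had an untreated peak (chromosome 14, 58062986 to 58063121, 5.50-fold, 6 fragments) 7.62 kb before the gene and with no other protein-coding gene within 50 kb. Its nearest doxycycline summit was 454 kb away. Fgf16 came within 77.3 kb of a doxycycline summit, and Fgf20 was 933 kb from its nearest doxycycline summit. In the FGF1 subfamily, Fgf1 had a doxycycline peak (chromosome 18, 38791098 to 38791245, 7.25-fold, 9 fragments) 47.4 kb away and inside Arhgap26, the member summit closest to the limit from within. Fgf2 had none nearer than 844 kb.

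The FGF11 subfamily, represented in the set by Fgf11, Fgf12 and Fgf14, encodes proteins that stay in the cell and bind sodium channels. The ligand counts thus include Fgf11 with doxycycline and Fgf14 without. Fgf13 was placed among the other pathway genes and had no summit within 50 kb in either list. Fgf11 had the strongest doxycycline peak of the set (chromosome 11, 69838395 to 69838634), at 9.04-fold with a −log10 q of 9.93 and 12 fragments (95% interval 6.20 to 21.0). It lay 35.6 kb from Fgf11 in a gene-dense stretch, 0.006 kb from Tmem256 and 0.735 kb from Nlgn2, and 8 genes were nearer to it than Fgf11. Besides these 2 they were Plscr3, Tnk1, Spem1, Spem2, Gm39566 and Tmem102, and Tmem95, Kctd11, Chrnb1 and Acap1 lay farther within 50 kb. Fgf14 had the strongest untreated peak (chromosome 14, 124281268 to 124281449), inside its 703 kb interval, at 8.65-fold with a −log10 q of 8.89 and 10 fragments (95% interval 4.80 to 18.4). Fgf14 was the only member with an untreated summit inside the gene, where 5.96% of all protein-coding genes had one. That share is not matched for length, as the median length of all protein-coding genes was 17.2 kb. Fgf14 had no doxycycline summit nearer than 77.9 kb. Fgf12, almost as long at 595 kb, had no summit within 50 kb in either list.

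Of the endocrine ligands, which need Klotho proteins, Fgf23 had a summit in each list and Fgf15 an untreated one. At Fgf23, the bone hormone of phosphate balance, the peaks of the lists almost met. The doxycycline peak (chromosome 6, 127124376 to 127124545, 5.12-fold, 6 fragments, −log10 q of 3.07) and the untreated peak (127124020 to 127124171, 7.07-fold, 8 fragments, −log10 q of 6.07) were separated by 204 bases. Both lay about as far from Fgf23 (42.1 kb and 41.8 kb) and much nearer to the cyclin gene Ccnd2 (0.718 kb and 1.07 kb), with Tigar 14.9 kb and 14.5 kb away. Fgf15, the mouse counterpart of human FGF19, had an untreated peak (chromosome 7, 144918211 to 144918380, 5.50-fold, 6 fragments) at 17.3 kb, inside the neighbouring gene LTO1 and 11.7 kb from Ccnd1. Fgf15 forms a cluster with Fgf3 and Fgf4, neither of which was within 50 kb of that summit. Fgf21, the fasting hormone, had no summit within 50 kb in either list, the nearest being an untreated one at 132 kb.

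**Figure D3:**
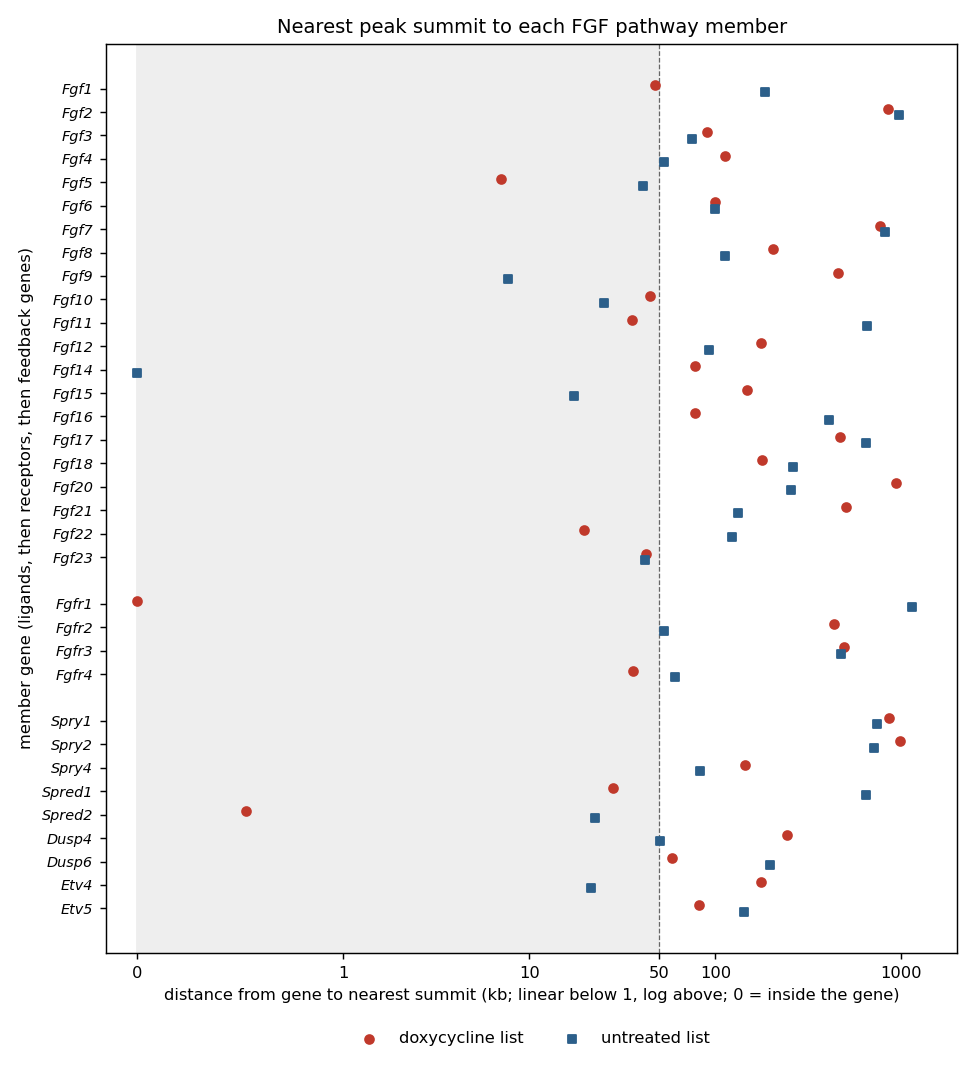
Points give the distance from each gene to its nearest summit in each list (kb, linear below 1 and logarithmic above), with the 50 kb limit dashed. Fgfr1 and Spred2 have the nearest doxycycline summits (0 and 0.529 kb), Fgf14 the nearest untreated one (0 kb), and 20 genes have both points to the right of the limit.

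Taking all 13 doxycycline peaks together, the FGF gene was the nearest protein-coding gene to 6, and 4 lay inside another gene. Of the 8 untreated peaks the FGF gene was the nearest to 3, and 2 lay inside another gene. A peak within 50 kb is thus not thereby assigned to the FGF gene, and the peaks nearest to their member were those at Fgf5, Fgf10, Fgfr1 (inside the gene), Spred1 and Spred2 with doxycycline and at Fgf9, Fgf10 and Fgf14 without it. Counting a summit for its nearest gene alone left 5 members in the doxycycline list and 3 in the other, against 9.82% and 10.1% of all protein-coding genes. None of the 13 doxycycline peaks overlapped an untreated peak, and 2.01% of the whole doxycycline list did.

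The median fold of the peaks near FGF genes was 5.85 with doxycycline and 5.50 without, beside 5.80 and 4.72 for all peaks within 50 kb of a protein-coding gene, and their median pileups were 7 and 6 fragments beside 7 and 5. A −log10 q above the median of the whole list was found for 11 of the 13 doxycycline peaks (list median 3.81) and 6 of the 8 untreated ones (list median 2.52). The lowest values among these were 4.16 and 3.64, and 51.7% and 67.4% of the whole lists lay below them. Many peaks share the same −log10 q, and the share of each whole list above its median was not counted. The median −log10 q of the member peaks was 4.17 with doxycycline and 3.64 without. For all peaks within 50 kb of a protein-coding gene it was 4.17 and 2.52, so the doxycycline medians were equal. A −log10 q of at least 5 was reached by 5 of the 13, beside 919 of the 2579 doxycycline peaks within 50 kb of a protein-coding gene. It was reached by 3 of the 8 untreated peaks, beside 235 of 2732. Folds ran from 4.39 to 9.04 with doxycycline and from 3.93 to 8.65 without. At Ptch1, the Hedgehog receptor gene and reference locus, the strongest of 6 doxycycline peaks reached 17.7-fold with 25 fragments (95% interval 16.2 to 36.9). That interval overlapped those of the peaks at Fgf11, Fgf22 and Fgf1 and of the stronger one at Fgfr4, and the other 5 Ptch1 peaks ran from 5.12-fold to 10.2-fold. The Poisson interval of the strongest member peak, at Fgf11, reached down to 6.20 fragments and so overlapped those of all other member peaks in that list. With a −log10 q of at least 5, summits were left at 5 members with doxycycline (Fgf1, Fgf11, Fgf22, Fgfr4 and Spred2, against 8.41% of all protein-coding genes) and at 3 without (Fgf10, Fgf14 and Fgf23, against 1.97%). Fgfr1 was not among the 5, as its 3 peaks had a −log10 q of 4.16 to 4.17.

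**Figure D4:**
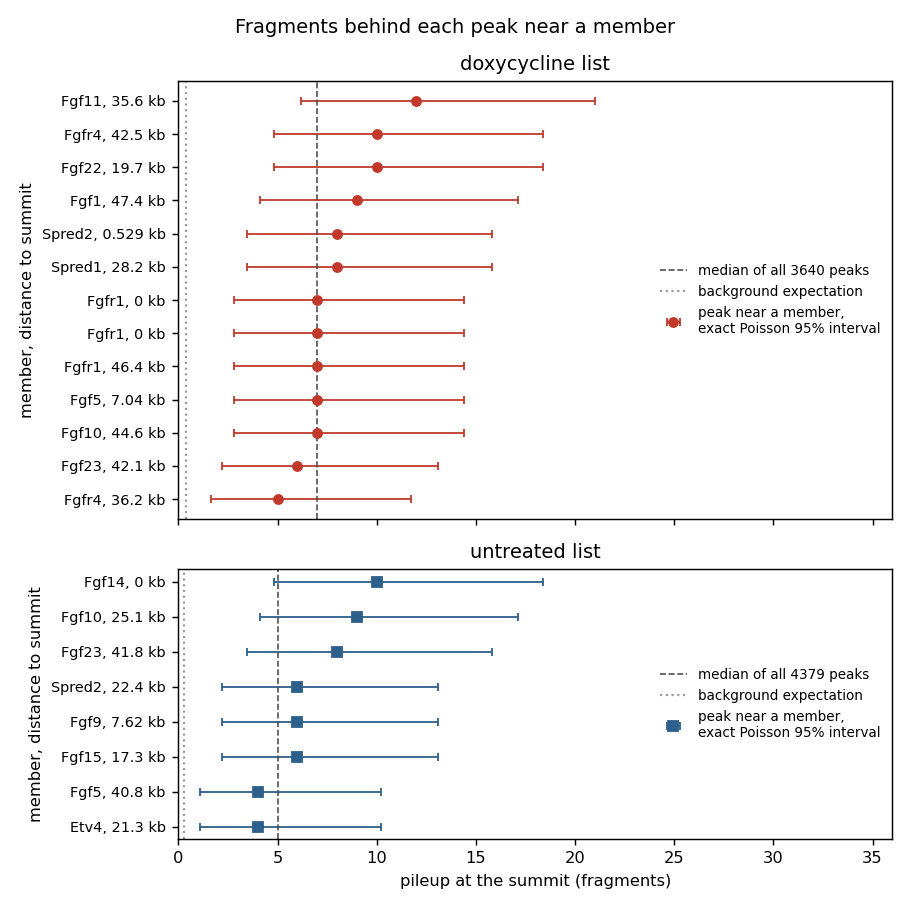
Points give the pileup at the summit of each peak near a member (fragments, horizontal) with its exact Poisson 95% interval, which covers counting error only, and dashed and dotted lines give the median pileup of the list and the background expectation. The doxycycline pileups run from 5 to 12 and the untreated ones from 4 to 10, and every interval spans the median of its list.

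The promoter table matched 24 of the 34 members (29 windows of 300 bases from RefSeq, GRCm38.p6, 250 before to 50 after a start). None of the 32851 promoter windows of the table touched a peak near a member, but the table has no window for some members. It does not follow that no such peak lies at a gene start. The peak near Fgf11 had its summit 0.006 kb from Tmem256. The GLI consensus GACCACCCA was searched on both strands. It was present without mismatch in 0 of the 29 member windows and in 0.253% of all windows. With 1 mismatch allowed it was present in 2 member windows (6.90%) and in 6.74% of all windows. The 2 sites are shown with 10 bases on each side, as the closest matches among the members, with the match in capitals and written on the gene's own strand.

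Fgf7: tcccccttacGACCACTCAacagtgtaca

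Fgf14: agtagggactGACCACCCTcacctctgtc

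The Fgf7 site (chr2:126034526-126034534, plus strand) differs from the consensus by C7T, and the Fgf14 site (chr14:124192667-124192675, minus strand) by A9T, with positions counted from 1 at the 5′ end of the consensus and the consensus base written before the site's. Neither list had a summit within 50 kb of Fgf7. The peak inside Fgf14 (124281268 to 124281449) was in the untreated list and lay more than 50 kb from the Fgf14 site.

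Other genes of the pathway were taken from a list of 60, of which 21 lay within 50 kb of a doxycycline summit (35.0%, against 20.0% of all protein-coding genes). An untreated summit lay that close to 15 (25%, against 18.8%), and 8 were in both sets (13.3%, against 4.97%). These genes are longer than most, with a median length of 53.6 kb against 17.2 kb for all protein-coding genes and 15.2 kb for the 34 members. Their windows held 2.34 doxycycline and 1.56 untreated summits per Mb, beside 1.53 and 1.62 for all protein-coding genes. The list was chosen with earlier results of these data known, so its shares are not read as a property of the pathway. Of 7 further feedback genes, 4 had a summit with doxycycline (57.1%, against 20.0% of all protein-coding genes) and 2 without (28.6%, against 18.8%). Dusp5, an ERK phosphatase, had 3 doxycycline summits, with the strongest inside the gene (7.31-fold, 9 fragments), and an untreated one of 4 fragments at 45.1 kb. Another gene was nearer to the weakest of the 3 and to the untreated summit. Lrig3, a receptor-regulating membrane protein, had 2, the stronger at 49.9 kb and 7.31-fold, and an untreated one of 4 fragments at 46.1 kb. Il17rd, the FGF receptor inhibitor also known as Sef, had a doxycycline peak inside the gene at 6.55-fold with 9 fragments and no untreated one.

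Among the 23 adaptor and cascade genes, summits lay near 8 with doxycycline (34.8%) and near 6 without (26.1%). Of all protein-coding genes, 20.0% and 18.8% had such a summit. The median length of these 23 genes was 64.1 kb, against 17.2 kb for all protein-coding genes. Frs2, the adaptor that docks on FGF receptors, had a summit in each list, at 18.8 kb with doxycycline (6.58-fold) and 6.76 kb without (5.41-fold). Sos1, the exchange factor that activates RAS, had the strongest untreated peak of the 60 genes, inside the gene at 11.3-fold with 14 fragments (95% interval 7.65 to 23.5), and a doxycycline peak at another site inside the gene at 5.85-fold. Plcg1, the phospholipase that binds activated receptors, had a doxycycline peak at 6.20-fold, 32.9 kb away and nearer to another gene. Cbl, a ubiquitin ligase for receptors, had 2 untreated summits, the stronger at 6.29-fold, 44.0 kb away and nearer to another gene, and 0 with doxycycline. Of 21 co-receptor and heparan sulphate genes, 6 and 5 had summits (28.6% and 23.8%, against 20.0% and 18.8% of all protein-coding genes). Among them was Sdc3, a heparan sulphate proteoglycan gene, at 7.31-fold with doxycycline (2.78 kb away) and 7.07-fold without (8.88 kb away). Another gene was nearer to that untreated peak. Of 8 ERK target genes 3 and 2 had summits, with the immediate early genes Ier2 (7.18-fold, 5.05 kb away) and Fos (6.26-fold, 29.7 kb away) in the doxycycline list and Etv1 (6.29-fold, inside the gene) in the untreated list. None of the 24 doxycycline peaks near these 60 genes overlapped an untreated peak, beside 2.01% of all doxycycline peaks. A gene of this list was the nearest protein-coding gene to 18 of the 24 doxycycline peaks and to 9 of the 16 untreated peaks.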

How the data were processed

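The deposit holds a peak list for each of 2 conditions, made from 6 libraries (4 pull-downs, 2 per condition, and 2 inputs). Groups follow the sample titles, which give GLI3R, although the labels' treatment text speaks of GLI1. Bowtie2 2.3.2, SAMtools 1.5, MACS2 2.1.1 and build mm10 are named per the submitters' processing notes. The sources used here do not state the settings, the role of the inputs or any pooling of replicates, and library totals were not analysed here.

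Fold enrichment per peak is a ratio deposited by the authors. So are −log10 p and −log10 q, also deposited by the authors. The authors' deposited score (10 times −log10 q, cut to whole numbers) was not used. Intervals listed more than once were merged and the best summit kept, so that 3725 rows gave 3640 doxycycline peaks and 4428 rows gave 4379 untreated ones. Coordinates are counted from 1. The pileup was computed from fold and −log10 p (fold = (pileup + 1) / (expectation + 1), upper-tail Poisson p), and a whole number fitted within 0.01 for 99.75% and 99.84% of peaks. The most frequent expectation was 0.368 fragments with doxycycline and 0.272 without. Exact Poisson intervals cover counting error only. Gene intervals came from RefSeq on GRCm38.p6, the assembly of mm10, and all 34 members matched by symbol.

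The members and lists were chosen with earlier results of these data known. Every member with a summit in either list is named, with Ptch1 as reference, genes sharing a peak with a member, and the strongest of the other pathway genes. Alternatives were other distances and thresholds, the top 1000 peaks, no shared peaks, the nearest gene, gene ends, all rows and neighbouring members counted once. The pileup and distance steps were checked on simulated data, where 100% of 2000 pileups and the distances of 100% of 200 planted summits came back. The simulated pileups were made with the formula that was then inverted, so this checks the arithmetic only. Gene counts and overlaps between lists were not simulated. The scripts ran in Python 3.11.15 with pandas 2.3.3, numpy 2.4.6, matplotlib 3.10.9 and scipy 1.17.1.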

Additional observations from a re-analysis of the deposited data

How the results depend on the processing

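No paired analysis was possible because the lists do not separate replicates, and for the same reason no replicate could be left out. In the order members with a doxycycline summit, members with an untreated summit, members with both, doxycycline summits and untreated summits, the counts were 10, 8, 4, 13 and 8. They were 3, 2, 0, 4 and 2 within 10 kb, 16, 16, 8, 23 and 15 within 100 kb, 5, 3, 0, 5 and 3 at a −log10 q of 5 or more, 5, 5, 1, 5 and 5 in the 1000 strongest peaks of each list, and 5, 3, 1, 6 and 3 with the nearest gene only. Fewer peaks or shorter windows give fewer genes by construction. The share of all protein-coding genes moved too, to 9.55% and 8.60% within 10 kb and 31.3% and 30.2% within 100 kb. It was 8.41% and 1.97% at a −log10 q of 5 or more and 7.02% and 4.75% in the 1000 strongest peaks. With the nearest gene only it was 9.82% and 10.1%. The other pathway genes, 21 and 15, were 13 and 8 within 10 kb, 6 and 2 at a −log10 q of 5 or more, 5 and 4 in the 1000 strongest peaks, and, in the untreated list, 9 with the nearest gene only. Summits within 500 bp of each other, chosen after seeing the data, gave 1 member peak shared between the lists against 0 by overlap. With 1 mismatch 2 members held the GLI motif against 0. The counts for members with both were also recomputed after seeing the data. The remaining 30 values stayed within 1.5 times of their main count, with a pileup of at least 5 fragments, shared peaks left out, gene ends, all rows and neighbouring members counted once among them. Some of these could not move. Every doxycycline peak had at least 5 fragments, so the pileup limit removed none from that list. No peak near a member or other pathway gene overlapped the other list, so leaving out shared peaks kept those counts by construction. With pileups of 4 to 12 fragments behind the member peaks, a site missing from a list may have fallen just under the threshold.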

Other observations

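Although no peak near an FGF gene overlapped a peak of the other list, some summits of the lists lay close together. The doxycycline and untreated summits between Fgf23 and Ccnd2 were 0.355 kb apart, those near Hs6st1, which encodes a heparan sulphate sulphotransferase, 1.22 kb apart, and those near Lrig3 3.81 kb apart. These are 1 of the 13 doxycycline peaks near members and 2 of the 24 near other pathway genes. Of the 3567 doxycycline peaks that overlap no untreated peak, 71 (1.99%) had an untreated summit within 5 kb. These pairs were chosen after their values were seen, and no test was made.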
